A study of Saccharomyces cerevisiae with 36 samples.

Results

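The transcript response to ethanol was compared between 2 wild strains of the budding yeast Saccharomyces cerevisiae, YPS163, from an oak habitat, and M22, from a vineyard. The comparison used 6 of the 36 two-colour arrays of the series. They were the arrays labelled YPS163 and M22 that set cells after 30 min in ethanol against log-phase cells of the same strain before ethanol, 3 arrays per strain. Both strains grew in YPD, a rich glucose medium, at 30 °C, and ethanol was added to 5% by volume. The labels name the strains with no added mutation, give no ploidy, and state that single time points were biological triplicates. Each strain is 1 isolate, so a difference between them is a difference between these 2 isolates. DBY8268, the laboratory strain of the S288c background, received the same treatment on 3 arrays and supplied the common partner of the log-phase arrays of YPS163 and M22. Single arrays at 15, 45 and 60 min in ethanol were used for both wild strains. The 2 usable ethanol arrays of YPS163 MATa, a strain of the YPS163 background labelled with mating type a, are given beside a few results.

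Ethanol disturbs the plasma membrane and protein folding, and yeast cells answer with 2 broad programmes. Genes of the environmental stress response, many of them driven by the factors Msn2 and Msn4, rise, and genes for ribosomes and ribosome assembly fall. Wild isolates carry sequence differences that change how strongly single pathways take part. Among the pathways that follow, sulfate assimilation and methionine synthesis are driven by Met4 with Cbf1 and Met31 or Met32, leucine synthesis by Leu3, and phosphate uptake by Pho4. Aquaporins are water channels of the plasma membrane, and eisosomes are furrows of that membrane lined by specific proteins.

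Each deposited value was read as the log2 ratio of ethanol over log phase. The labels do not state the direction or the base of the logarithm. The direction was read from where values are missing. Spots of the log-phase arrays were empty more often for the 68 genes with a mean over 3.5 (19.6% of spots) than for the 223 genes with a mean under -2 (8.4%). The 6 arrays hold 5081 to 5817 values each, 4541 open reading frames have a value on all 6, and array medians lie between -0.05 and 0.17. Across genes, arrays of one strain correlated at 0.838 to 0.927 in YPS163 and at 0.875 to 0.905 in M22. Array 1 of each strain belongs to the time course, and array 2 carries the dyes the other way round. The arrays hold ratios and no levels, so the ploidy of a strain cannot be read from haploid-specific genes.

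Of 5185 genes tested, 303 (5.84%) responded differently in the 2 strains, 96 (1.85%) higher in YPS163 and 207 (3.99%) lower, at an adjusted p under 0.05 in limma with the arrays paired by replicate number. A difference here is the YPS163 log2 ratio minus the M22 log2 ratio. The median difference was 1.28 over the genes called higher and -1.09 over those called lower, against -0.04 over all genes tested, whose 5th and 95th percentiles were -0.84 and 0.63. A difference of at least 2-fold was reached by 66 of the higher and 123 of the lower genes. The 275 called genes with 3 complete pairs had the same sign in each pair. They were called on these same pairs, so this agreement gives no separate support. The arrays of the strains did not overlap for 281 of the called genes, against 953 of all genes tested (18.4%).

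The same 303 genes split by what each strain did on its own, and 48 of them rose in one strain and fell in the other. Among the 48 are YRF1-3, YRF1-4, YRF1-7 and YRF1-8, near-identical copies that do not count as independent genes. In YPS163 3427 of 5292 genes changed (64.8%), of which 1736 rose (32.8%) and 1691 fell (32%). In M22 3583 of 5363 changed (66.8%), of which 1912 rose (35.7%) and 1671 fell (31.2%). Of the 96 genes higher in YPS163, 23 rose in both strains, 23 rose in YPS163 and fell in M22, 21 rose in YPS163 alone by these tests, 13 fell in both and 15 fell in M22 alone. The remaining 1 was not tested in either strain on its own. Of the 207 genes lower in YPS163, 99 rose in both strains, 25 fell in YPS163 and rose in M22, 46 rose in M22 alone, 19 fell in YPS163 alone and 18 fell in both. The commonest pattern in the lower genes was thus a rise in both strains that was smaller in YPS163. These counts take in near-identical copies, and 174 of the 207 were neither YRF1 copies nor the overlapping frames described further on. Copies under other names were not searched for, so the 174 and the 48 may still hold some. The DBY8268 mean was nearer to M22 than to YPS163 for 71 of the 96 higher genes, and for 100 of the 207 lower ones. The same share over all genes tested was not taken, so these counts do not single out the called genes. Across genes, DBY8268 arrays correlated with same-numbered arrays at 0.826, 0.864 and 0.848 in M22, against 0.776, 0.851 and 0.789 in YPS163.

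**Figure D1:**
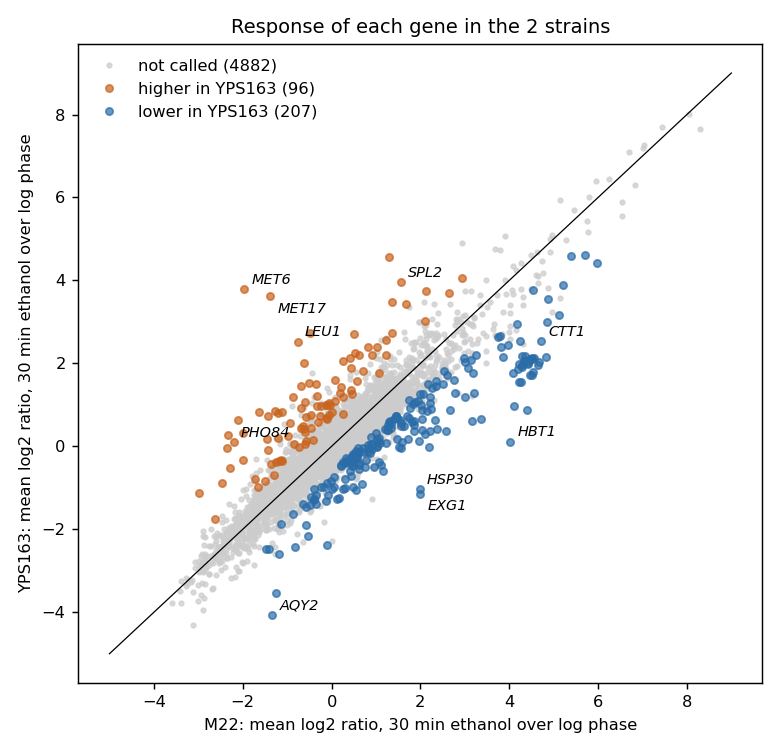
Mean log2 ratio of ethanol over log phase in YPS163 (vertical axis) against M22 (horizontal axis), 1 point per gene tested, with the line of equal response. Orange points are the 96 genes called higher in YPS163 and blue points the 207 called lower. MET6 and MET17 lie above 3 in YPS163 and below -1 in M22, and a compact blue group near 2 in YPS163 and near 4 in M22 holds many of the overlapping frames described further on.

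Genes of sulfur metabolism gave the largest differences of the comparison. MET6, the methionine synthase, had log2 ratios of 3.17, 3.79 and 4.40 in YPS163, against -2.12, -2.11 and -1.66 in M22. The strains lay on opposite sides of 0 on every array, and DBY8268 averaged -2.39 ± 0.39 (SD, n = 3). The difference was 5.75 ± 0.18 (SE), or 53.8-fold (limma adjusted p = 2.35e-05). MET17, the enzyme that fixes sulfide into homocysteine, had ratios of 3.14, 3.45 and 4.25 in YPS163, against -1.53, -1.58 and -1.03 in M22, a difference of 4.99 ± 0.17 (limma adjusted p = 2.36e-05). It too rose in YPS163 and fell in M22, and averaged -2.20 ± 0.22 (SD, n = 3) in DBY8268.

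Of the 10 genes of sulfate assimilation, the chain that turns sulfate into sulfide, 7 were higher in YPS163 and 0 lower, with a median difference of 1.77. Of the list, 7 genes rose in YPS163 by that strain's own test, and 6 fell in M22. Over all genes tested for the difference, 1.85% were called higher and 3.99% lower. MET5 and MET10 encode the subunits of sulfite reductase. MET5 stood at 0.38, 0.67 and 0.89 in YPS163, against -2.03, -2.32 and -1.98 in M22, a difference of 2.76 ± 0.16 (limma adjusted p = 0.000236). MET10 stood at 0.19, 1.10 and 1.17 in YPS163, against -1.85, -1.71 and -1.33 in M22, a difference of 2.45 ± 0.17 (limma adjusted p = 0.00055). MET14, the kinase that activates sulfate a second time, differed by 2.61 ± 0.20 (limma adjusted p = 0.000929). MET1, which makes the haem-like cofactor of sulfite reductase, differed by 2.00 ± 0.14 (limma adjusted p = 0.000635). The count of the list was 6 of 10 without replicate 2 and 6 of 9 tested without replicate 3.

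Of the 17 genes of the methionine and cysteine cycle, 8 were higher in YPS163 and 0 lower, with a median difference of 0.43. The share called higher over all genes tested was 1.85%. Beside MET6 and MET17, STR3, which splits cystathionine towards homocysteine, differed by 2.21 ± 0.27 (limma adjusted p = 0.00425), and MET13, which supplies the methyl group that Met6 transfers, by 1.80 ± 0.17 (limma adjusted p = 0.00314). The count of the list fell to 3 without replicate 2 and to 4 without replicate 3. Of 4 sulfur permeases 2 were higher, the S-methylmethionine permease MMP1 with 2 complete pairs (2.12 ± 0.19, limma adjusted p = 0.00275) and the methionine permease MUP1 (1.00 ± 0.14, limma adjusted p = 0.0078). Their count was 0 of 3 tested without replicate 1 and without replicate 3, and 1 of 4 without replicate 2 and without the pairing. Without the pairing stands here and further on for the same arrays fitted with no term for replicate number. The sulfite exporter SSU1 and the glutathione and peptide transporter OPT1, both chosen after their values were seen, differed by 2.14 ± 0.36 (limma adjusted p = 0.0173) and 1.78 ± 0.18 (limma adjusted p = 0.00202). GSH1, which starts glutathione synthesis, differed by 1.12 ± 0.14 (limma adjusted p = 0.00528). None of the 6 sulfur regulators passed the limma test, and 3 had an unadjusted p under 0.05, 1 higher and 2 lower. Among them the cofactor MET28 differed by 0.80 ± 0.31 (limma adjusted p = 0.194) and CBF1 by -0.62 ± 0.18 (limma adjusted p = 0.0966).

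**Figure D2:**
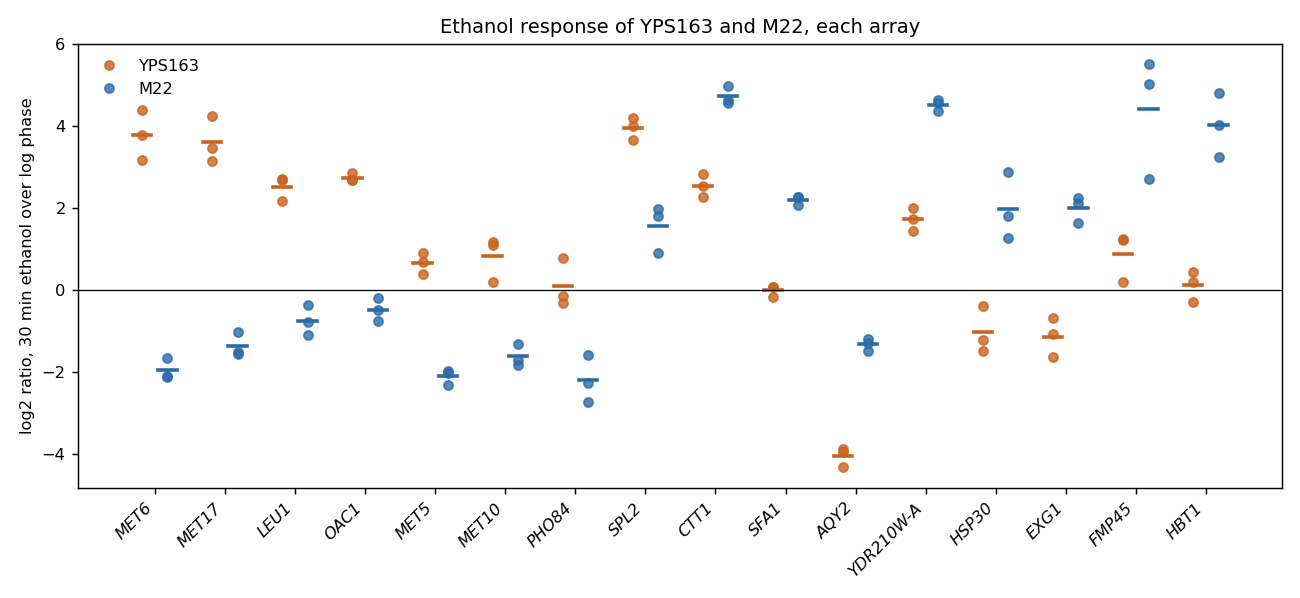
Log2 ratio of ethanol over log phase (vertical axis) for 16 named genes, YPS163 in orange left of M22 in blue. Points are single arrays at 30 min and short lines their means. The arrays of the 2 strains do not overlap for any of these 16 genes, and for MET6, MET17, LEU1, OAC1, MET5 and MET10 they lie on opposite sides of 0.

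In log phase MET6, MET17 and the sulfate assimilation list as a whole stood the other way round. Log-phase arrays set each wild strain against DBY8268, and a positive ratio is taken to mean more transcript in the wild strain. Of the ethanol spots of the 92 genes under -4 in YPS163, 33.3% were empty on YPS163 arrays and 6.9% on DBY8268 arrays. Whether strain differences in sequence or copy number shift these ratios, and the levels in ethanol taken from them, was not tested. MET6 stood at -3.28, -3.07 and -2.93 in YPS163, against 1.83, 1.96 and 2.57 in M22, a log-phase difference of -5.21 ± 0.18 (limma adjusted p = 0.00541). MET17 stood at -3.89, -2.85 and -3.96 in YPS163, against 0.91, 1.47 and 1.57 in M22, a difference of -4.88 ± 0.27 (limma adjusted p = 0.00756). Both calls were lost without replicate 2, with MET6 at -5.30 and MET17 at -5.17 (limma adjusted p = 0.0914 for each), and without replicate 3, with MET6 at -5.07 and MET17 at -4.56 (limma adjusted p = 0.0939 for each). The median log-phase difference was -2.84 for the sulfate assimilation list, -0.43 for the methionine and cysteine cycle, -0.68 for the sulfur permeases and 0.22 for the sulfur regulators, against 0.02 over all genes tested for the response. STR3 differed in log phase by -0.48 ± 0.75 (limma adjusted p = 0.808).

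The level in ethanol of YPS163 over M22 was taken as the sum of the log-phase difference and the response difference. It came to 0.54 ± 0.25 for MET6 (limma adjusted p = 0.335) and to 0.11 ± 0.32 for MET17 (limma adjusted p = 0.91). For MET10 it was -2.06 ± 0.35 (limma adjusted p = 0.0131), and -1.86 without replicate 3 (limma adjusted p = 0.221) and -1.64 without replicate 1 (limma adjusted p = 0.154). Over the sulfate assimilation list the median was -0.65, with 3 of 10 called lower in YPS163 and 0 higher, against 1.69% and 1.16% of all 4898 genes tested. The response and the log-phase difference each use log-phase RNA, with opposite sign. The labels do not say whether the log-phase arrays and the ethanol arrays drew on the same unstressed cultures.

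Genes of leucine and branched-chain amino acid synthesis also responded more strongly in YPS163, with 8 of the 13 genes tested higher, 0 lower and a median difference of 1.61. The share called higher over all genes tested was 1.85%. LEU1, the isopropylmalate isomerase, had ratios of 2.17, 2.70 and 2.68 in YPS163, against -1.11, -0.79 and -0.38 in M22. OAC1, a mitochondrial carrier of oxaloacetate and isopropylmalate, had 2.67, 2.68 and 2.85 in YPS163, against -0.77, -0.20 and -0.49 in M22. Both genes rose in YPS163 and were below 0 on every M22 array, and in DBY8268 they averaged -1.88 ± 0.35 and -1.32 ± 0.07 (SD, n = 3 each). The differences were 3.28 ± 0.16 for LEU1 and 3.22 ± 0.16 for OAC1 (limma adjusted p = 0.000112 for each).

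BAT1, the mitochondrial branched-chain aminotransferase, stood at 0.24, 1.21 and 1.12 in YPS163, against -1.61, -1.19 and -1.05 in M22, a difference of 2.14 ± 0.20 (limma adjusted p = 0.00133). LEU2, the next enzyme after LEU1, rose in both strains, with 3.52, 3.58 and 4.14 in YPS163, against 2.06, 1.97 and 2.37 in M22 (difference 1.61 ± 0.18, limma adjusted p = 0.00307). In log phase these genes did not pass the test of a strain difference, which was 0.64 ± 0.17 for LEU1 (limma adjusted p = 0.215) and 0.00 ± 0.17 for OAC1 (limma adjusted p = 0.994). Their level in ethanol was higher in YPS163, by 3.91 ± 0.22 for LEU1 (limma adjusted p = 4.91e-05), 3.22 ± 0.22 for OAC1 (limma adjusted p = 0.000159) and 2.34 ± 0.27 for BAT1 (limma adjusted p = 0.00197), and 6 genes of the list were called higher in level. Without replicate 3 the level of BAT1 was 2.17 (limma adjusted p = 0.0793). Without replicate 2 the response count of the list was 4, and LEU2 then differed by 1.61 (limma adjusted p = 0.0674).

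The 2 YPS163 MATa arrays gave 1.81 and 2.02 for LEU1 and 2.38 and 2.40 for OAC1. For MET6 they gave 1.23 and 1.06, and for MET17 0.96 and -0.04. For MET5 they gave 0.61 and 0.68, and for MET14 0.20 and 0.10. These values lie between the wild strains for MET6 and MET17 and within the range of the YPS163 arrays for MET5 and MET14. They were not part of the fit.

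Amino acid permeases, a list put together after the values were seen, had 7 of 16 genes higher in YPS163 and 0 lower, with a median of 0.70. The share called higher over all genes tested was 1.85%. The branched-chain permeases BAP3 and BAP2 differed by 1.85 ± 0.16 and 1.72 ± 0.15 (limma adjusted p = 0.00121 for each), and the tyrosine and valine permease TAT1 by 1.40 ± 0.12 (limma adjusted p = 0.00128). The count of the list was 4 without the pairing, and 3, 4 and 3 without replicates 1, 2 and 3. Among 31 other genes of amino acid synthesis 5 were higher and 0 lower, with a median of 0.21. SER33, of serine synthesis, differed by 1.29 ± 0.14 (limma adjusted p = 0.0029), and ARG4, of arginine synthesis, by 0.98 ± 0.18 (limma adjusted p = 0.0251). Without replicate 2 the count of this list was 0, and 2 without replicate 1 or without replicate 3.

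Of 19 genes of the phosphate regulon, 4 were higher in YPS163 and 0 lower, with a median of 0.35. The share called higher over all genes tested was 1.85%. The high-affinity phosphate transporter PHO84 had ratios of -0.33, -0.15 and 0.77 in YPS163, against -2.27, -2.74 and -1.59 in M22. It fell in M22, its YPS163 arrays lie on both sides of 0, and the difference was 2.30 ± 0.19 (limma adjusted p = 0.00121). SPL2, which limits low-affinity phosphate uptake, had 4.0, 4.20 and 3.66 in YPS163, against 1.81, 1.96 and 0.89 in M22, a rise in both strains that differed by 2.40 ± 0.30 (limma adjusted p = 0.00448). The level in ethanol, a sum that contains the response difference, was higher in YPS163 for both. It differed by 2.00 ± 0.25 for PHO84 (limma adjusted p = 0.00251) and 3.45 ± 0.63 for SPL2 (limma adjusted p = 0.0165). Without replicate 3 these levels were 2.00 (limma adjusted p = 0.0677) and 3.10 (limma adjusted p = 0.221), and without replicate 2 they were 1.92 (limma adjusted p = 0.0633) and 2.96 (limma adjusted p = 0.116). The polyphosphate subunit VTC3 and the kinase inhibitor PHO81 differed by 0.92 ± 0.18 (limma adjusted p = 0.0316) and 0.68 ± 0.14 (limma adjusted p = 0.0328). The count of the list was 2 without replicate 2 or without replicate 3, and 2 without the pairing.

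Other genes higher in YPS163 had varied roles. ALD5, a mitochondrial acetaldehyde dehydrogenase, had -0.56, 0.17 and 0.26 in YPS163, against -2.35, -2.46 and -2.28 in M22, a difference of 2.32 ± 0.19 (limma adjusted p = 0.00121). The mitochondrial dicarboxylate carrier DIC1, chosen after its values were seen, rose in both strains, more in YPS163, by 2.12 ± 0.24 (limma adjusted p = 0.00322). NEJ1, an end-joining factor that a/alpha diploids repress, differed by 2.42 ± 0.33 over 2 complete pairs (limma adjusted p = 0.0116). It was the only called gene among the 8 haploid and mating genes tested of 21 listed. The 2 copies of the copper metallothionein, CUP1-1 and CUP1-2, whose signals the arrays may not tell apart, differed by 1.45 ± 0.23 (limma adjusted p = 0.0219) and 1.73 ± 0.21 (limma adjusted p = 0.00724). Without replicate 2 neither copy nor NEJ1 passed the test.

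On the lower side, HBT1, FMP45, EXG1 and HSP30 had the largest single differences among the genes named here. HBT1, which encodes a partner of the ubiquitin-like protein Hub1 and acts in cell shape, had ratios of -0.31, 0.44 and 0.20 in YPS163, against 3.23, 4.03 and 4.81 in M22. It was near 0 in YPS163 and rose in M22, and averaged 0.86 ± 0.45 (SD, n = 3) in DBY8268. The difference was -3.91 ± 0.23, or 15.1-fold (limma adjusted p = 0.000236). FMP45, a membrane protein of the SUR7 family, had 0.20, 1.21 and 1.24 in YPS163, against 2.70, 5.02 and 5.51 in M22, with M22 array 1 well below its other arrays, and differed by -3.53 ± 0.32 (limma adjusted p = 0.00133). NCE102, an eisosome protein that senses sphingolipids, fell in YPS163 (-0.69, -0.57 and -0.53) and rose in M22 (1.18, 0.92 and 1.37), a difference of -1.75 ± 0.16 (limma adjusted p = 0.00128). Of the 15 genes tested of the eisosome and SUR7 list, which also holds HBT1, 5 were lower and 0 higher, with a median of -0.55. Without the pairing, without replicate 1 or without replicate 2 the count was 3. The share called lower over all genes tested was 3.99%.

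For HBT1 and FMP45 the YPS163 MATa arrays were nearer to M22 than the YPS163 arrays were, with 2.16 and 1.35 for HBT1 and 3.91 and 2.63 for FMP45. The level of HBT1 in ethanol was lower in YPS163 by a difference of -3.31 ± 0.40 (limma adjusted p = 0.00202), and that of NCE102 by -2.14 ± 0.27 (limma adjusted p = 0.00245). Without replicate 3 they were -2.90 (limma adjusted p = 0.0741) and -1.92 (limma adjusted p = 0.0807), and without replicate 2 that of NCE102 was -2.15 (limma adjusted p = 0.0551).

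EXG1, the main exoglucanase of the cell wall, had ratios of -1.65, -1.09 and -0.69 in YPS163, against 2.25, 2.12 and 1.62 in M22. It fell in YPS163 and rose in M22, with a difference of -3.14 ± 0.29 (limma adjusted p = 0.00133). Its log-phase ratios over DBY8268 were 0.21 and -0.07 on 2 arrays in YPS163, against -2.77, -2.36 and -1.96 in M22, and its level in ethanol differed by -0.70 ± 0.49 (limma adjusted p = 0.539). Of 30 cell wall genes 2 were lower and 0 higher, EXG1 and the wall protein PIR3 (-1.94 ± 0.38 over 2 complete pairs, limma adjusted p = 0.0393). Over all genes tested 3.99% were called lower. The median of the cell wall list was 0.06, with 16 genes above 0 and 14 below. Without replicate 2 neither EXG1 nor PIR3 passed the limma test, with EXG1 at -3.10 (adjusted p = 0.0525) and PIR3 at -1.95 (adjusted p = 0.15).

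HSP30, a plasma membrane protein that restrains the proton pump Pma1, had -1.22, -1.50 and -0.39 in YPS163, against 2.87, 1.27 and 1.81 in M22, a difference of -3.02 ± 0.34 (limma adjusted p = 0.00314). DBY8268 averaged 6.47 ± 0.45 (SD, n = 3), above both wild strains. Its homologue MRH1 differed by -1.54 ± 0.17 (limma adjusted p = 0.00314), with a log-phase difference of 1.66 ± 0.15 (limma adjusted p = 0.0336, and 0.0554 to 0.327 with 1 replicate left out) and a level in ethanol that differed by 0.12 ± 0.22 (limma adjusted p = 0.837). A second homologue, YRO2, had 0.00, 1.77 and 2.08 in YPS163, against 2.42, 2.91 and 3.23 in M22, and did not pass the limma test (-1.57 ± 0.43, adjusted p = 0.0849). Without replicate 2 HSP30 was at -3.15 (limma adjusted p = 0.0659) and MRH1 at -1.51 (limma adjusted p = 0.0738).

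The aquaporin gene AQY2 fell in both strains, with -4.34, -3.90 and -3.96 in YPS163, against -1.49, -1.21 and -1.30 in M22, a difference of -2.73 ± 0.13 (limma adjusted p = 0.000112). In log phase it stood far above DBY8268 in YPS163 (5.59, 4.78 and 4.96) and less so in M22 (1.76, 1.32 and 1.14). Its level in ethanol was higher in YPS163 by 0.97 ± 0.19 (limma adjusted p = 0.0256), a call lost without the pairing (limma adjusted p = 0.284) and with any 1 replicate left out (0.87 to 1.07). The next frame in the reference annotation, YLL053C, chosen after its values were seen, moved alike (-2.28 ± 0.21, limma adjusted p = 0.00143). Whether the 2 frames report separate transcripts was not tested, so YLL053C is not counted as a further gene. The other aquaporin gene, AQY1, differed by 0.27 ± 0.26 (limma adjusted p = 0.593).

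**Figure D3:**
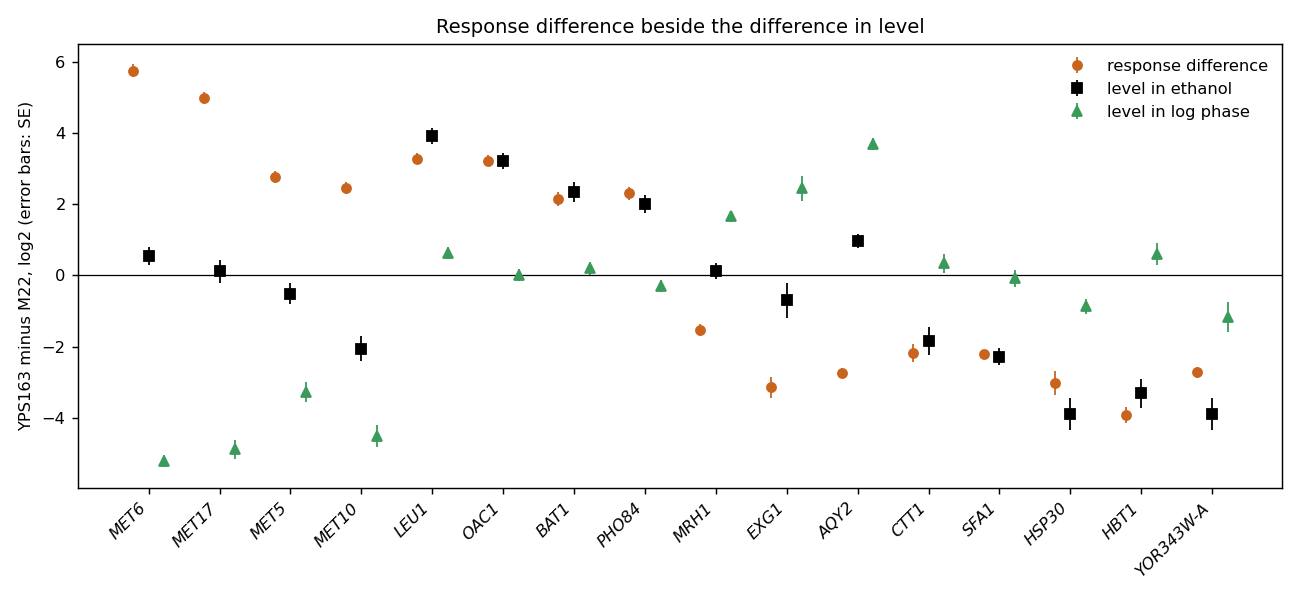
YPS163 minus M22 on the log2 scale (vertical axis) for 16 named genes: the response difference (orange circles), the level in ethanol (black squares) and the level in log phase (green triangles), with standard errors from the fits. For MET6, MET17 and MET5 the log-phase level is far below 0 and the level in ethanol within 1 of 0, while for LEU1, OAC1, BAT1, PHO84, CTT1, SFA1 and HBT1 the level in ethanol stands on the same side as the response. The level in ethanol is the sum of the response and log-phase differences, so it is not a separate measurement.

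Most general stress genes rose in both strains, and 8 of 46 rose less in YPS163. Over the 46 tested of 48 listed, the median log2 ratio was 3.15 in YPS163, against 4.12 in M22 and 2.81 in DBY8268, and 40 rose in YPS163, against 42 in M22. Of the 46 genes, 8 were lower in YPS163, 0 were higher and 38 were not called, and the median difference was -0.31 with 12 genes above 0. Over all 5185 genes tested 3.99% were called lower, and 2403 had a difference above 0. CTT1, the cytosolic catalase, had 2.26, 2.83 and 2.53 in YPS163, against 4.97, 4.55 and 4.64 in M22, a difference of -2.18 ± 0.26 (limma adjusted p = 0.00397). TFS1, an inhibitor of carboxypeptidase Y, had 2.75, 3.10 and 3.63 in YPS163, against 4.29, 5.34 and 5.74 in M22 (-1.96 ± 0.26, limma adjusted p = 0.0067). The secreted glycoproteins SPI1 and YGP1 differed by -1.93 ± 0.42 (limma adjusted p = 0.0423) and -1.87 ± 0.21 (limma adjusted p = 0.00322).

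The count of stress genes was 0 without replicate 2, where CTT1 differed by -2.41 (limma adjusted p = 0.0528) and YGP1 by -1.86 (limma adjusted p = 0.0745). It was 5 without replicate 1 and 4 with the 6 arrays alone and no pairing. The YPS163 MATa arrays gave 5.29 and 4.95 for CTT1, close to the M22 values. The level in ethanol was lower in YPS163 for 4 stress genes and higher for 0. It differed by -1.84 ± 0.39 for CTT1 (limma adjusted p = 0.0349), a call lost with any 1 replicate left out (-2.25 to -1.25), and by 0.36 ± 0.34 for YGP1 (limma adjusted p = 0.666).

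Heat shock chaperones gave 0 calls among 26 tested, with 0 at an unadjusted p under 0.05 and a median difference of 0.12. Without replicate 3 there was 1 call, lower in YPS163. Their median ratio was 1.72 in YPS163, against 1.66 in M22. The disaggregase HSP104 had 4.90, 4.66 and 5.70 in YPS163, against 5.46, 4.89 and 4.55 in M22, arrays that overlap (0.12 ± 0.35, limma adjusted p = 0.869). HSP26, a small chaperone, had 7.24, 7.40 and 8.47 in YPS163, against 7.41 and 7.48 on 2 arrays in M22 (0.17 ± 0.60, limma adjusted p = 0.895). The membrane-protecting HSP12 was lacking on 1 YPS163 array and had 8.20 and 7.09 on the others, against 8.49, 7.99 and 8.40 in M22 (-0.57 ± 0.36, limma adjusted p = 0.42). TPS2, the phosphatase of trehalose synthesis, was the 1 called gene of the 18 tested for trehalose and glycogen (-1.23 ± 0.19, limma adjusted p = 0.0119). That single lower call stands against 3.99% of all genes called lower. Ribosome biogenesis genes fell in both strains in all 52 tested, with medians of -2.33 in YPS163, against -2.50 in M22. Their 1 call, DIP2 of the small subunit processome, was a smaller fall in YPS163 (0.86 ± 0.13, limma adjusted p = 0.0108). It is a share of the list near the 1.85% of all genes called higher. DIP2 was not called with any 1 replicate left out, nor TPS2 without replicate 1 or replicate 2. Of 28 proteasome genes 0 were called by limma and 2 had an unadjusted p under 0.05, both higher.

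**Figure D4:**
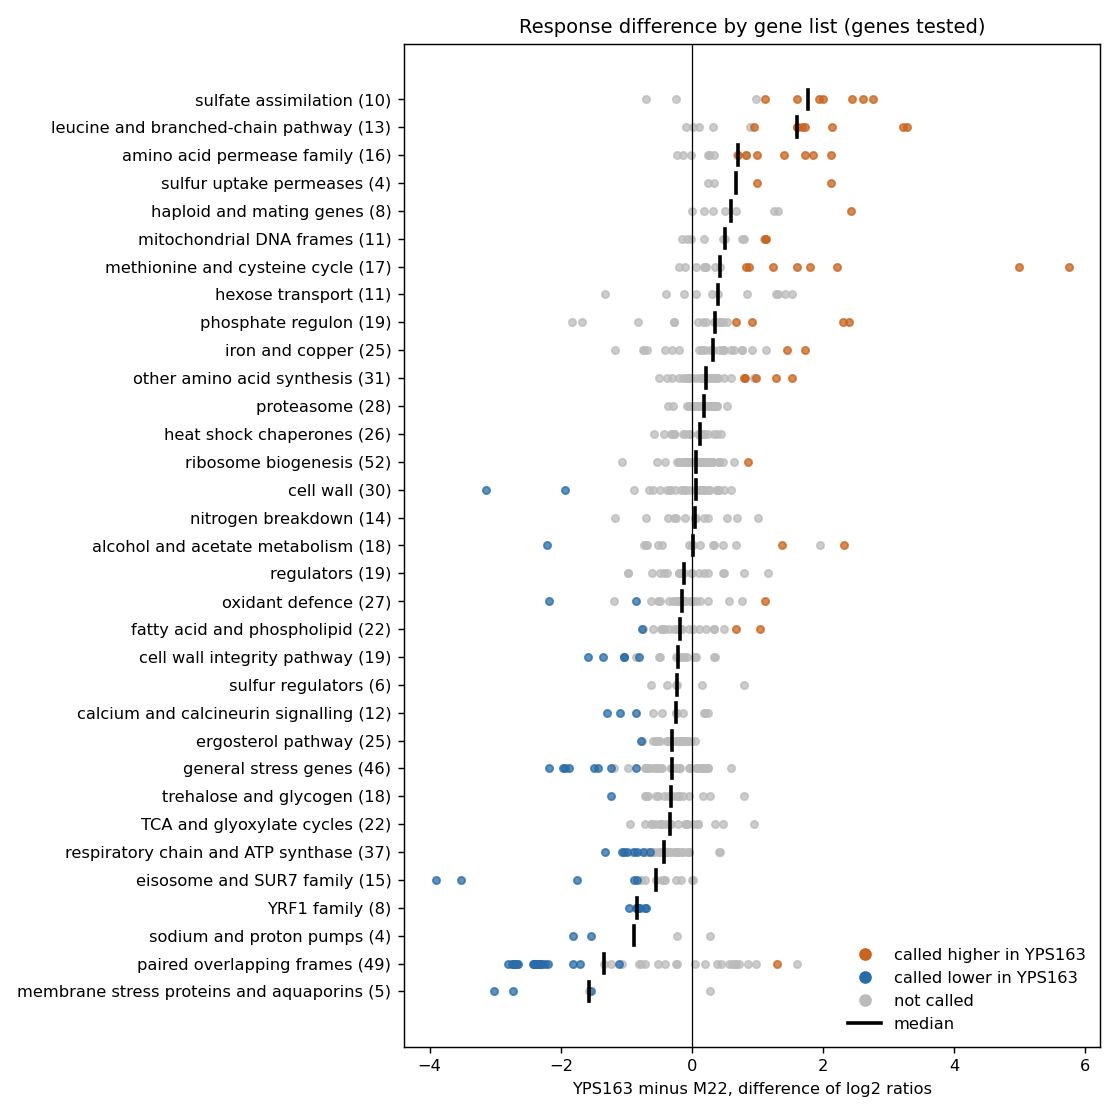
YPS163 minus M22 difference of log2 ratios (horizontal axis) for the genes tested in each list, with the number tested in brackets. Points are genes, orange if called higher in YPS163, blue if called lower and grey if not called, and black bars are list medians. The sulfate assimilation and leucine lists lie mostly right of 0, the YRF1 family wholly left of it, and the heat shock chaperones between -0.58 and 0.44.

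A compact group of 49 tested frames, of 78 listed, accounted for 25 of the 207 lower calls. Their layout in the reference annotation is a short frame sharing its start with a long overlapping frame, as in the Gag and Gag-Pol frames of Ty retrotransposons. The list was put together from that layout after the values were seen. These frames exist in near-identical copies, so 1 transcript family can light many spots, and they do not count as independent genes. The 25 lower frames had strain means of 1.18 to 2.64 in YPS163, against 3.00 to 4.83 in M22 and 0.35 to 2.91 in DBY8268. They rose in both wild strains, by less in YPS163, with differences of -2.80 to -1.11.

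The frame YDR210W-A had 1.72, 1.44 and 2.00 in YPS163, against 4.64, 4.37 and 4.55 in M22, a difference of -2.80 ± 0.24 (limma adjusted p = 0.00121). YOR343W-A had 1.54, 1.37 and 1.72 in YPS163, against 4.17, 4.16 and 4.47 in M22 (-2.72 ± 0.15, limma adjusted p = 0.000236). Of the other 24 tested frames 1, YBL005W-B, was called higher (1.30 ± 0.23, limma adjusted p = 0.0279), and 23 were not called, with differences of -1.34 to 1.60. In log phase the means of the 25 lower frames were -5.50 to -2.90 in YPS163 over DBY8268, against -6.71 to -2.83 in M22 over DBY8268. Among all genes with a log-phase mean under -4 in a strain, 33.3% of YPS163 and 27.8% of M22 ethanol spots were empty. How far a weak unstressed signal affects the responses of these frames was not tested. The YPS163 MATa means of these frames were -0.23 to 2.00. Without replicate 2 the lower count was 15, and under the other settings it was 23 to 26.

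The 8 YRF1 frames, also listed after their values were seen, are copies of a helicase gene of the subtelomeric Y' element. All 8 were lower in YPS163, with strain means of -0.37 to -0.14 in YPS163, against 0.46 to 0.82 in M22 and differences of -0.96 to -0.70. They averaged 0.18 to 0.35 in DBY8268. Being near-identical copies, they do not count as independent genes either. Their count was 0 without the pairing and without replicate 1 or 2, and 1 without replicate 3. It was 3 with 26 arrays of the series and no pairing, and 1 with the 6 arrays alone and paired.

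Genes of the respiratory chain and ATP synthase were lower in 8 of 37 tested and higher in 0, with a median of -0.43. Of these 37 genes, 35 had a difference below 0 and 24 rose in M22, against 11 in YPS163. Over all 5185 genes tested, 2781 had a difference below 0 and 3.99% were called lower. Of those 5185 genes, 1854 rose in M22 and 1691 in YPS163. CYB2, the lactate dehydrogenase that feeds electrons to cytochrome c, had 4.36, 3.41 and 3.90 in YPS163, against 5.33, 5.64 and 4.65 in M22 (-1.32 ± 0.27, limma adjusted p = 0.036). QCR8, a subunit of complex III, fell slightly in YPS163 (-0.24, -0.49 and -0.62) and rose in M22 (0.99, 0.43 and 0.45), a difference of -1.07 ± 0.13 (limma adjusted p = 0.0044). The NADH dehydrogenases of the inner and outer faces of the inner membrane, NDI1 and NDE1, differed by -1.03 ± 0.16 (limma adjusted p = 0.0143) and -0.99 ± 0.17 (limma adjusted p = 0.0177). The count was 3 without the pairing and 1 with the 6 arrays alone. Without replicate 1 it was 1 higher and 0 lower, without replicate 2 it was 0, and without replicate 3 it was 3 lower. The frames of mitochondrial DNA, listed after their values were seen, included 2 higher calls among 11 tested, COX3 (1.12 ± 0.21, limma adjusted p = 0.0252) and ATP8 (1.13 ± 0.23, limma adjusted p = 0.0337). Their count was 0 without the pairing, without replicate 2 and without replicate 3, and neither gene was called with any 1 replicate left out. The count of this list was 1 with 26 arrays of the series and no pairing. The share called higher over all genes tested was 1.85%.

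Signalling and ion transport genes were lower in smaller numbers. Among calcium and calcineurin genes, a list put together after the values were seen, 3 of 12 were lower: the vacuolar calcium pump PMC1 (-1.30 ± 0.20, limma adjusted p = 0.0119), the calmodulin-dependent kinase CMK2 (-1.09 ± 0.20, limma adjusted p = 0.0251) and the calcineurin subunit CMP2 (-0.86 ± 0.17, limma adjusted p = 0.0323). The count was 0 without replicate 2, and 1 without replicate 1, without replicate 3 or without the pairing. Of 19 genes of the cell wall integrity pathway, listed in the same way, 5 were lower. The kinase SLT2 had -0.79, -1.17 and -0.95 in YPS163, against -0.08, 0.13 and 0.13 in M22, a fall in YPS163 alone by the strains' own tests (-1.03 ± 0.15, limma adjusted p = 0.0108). That count was 1 without replicate 2 or without replicate 3, and 3 without the pairing. For both lists, the share called lower over all genes tested was 3.99%. The sodium pump copies ENA1 and ENA2, which may share signal, differed by -1.82 ± 0.28 (limma adjusted p = 0.0129) and -1.54 ± 0.30 (limma adjusted p = 0.0298), and without replicate 2 neither passed the test (ENA1 -1.80, limma adjusted p = 0.153).

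SFA1, an alcohol dehydrogenase that also removes formaldehyde, had 0.06, -0.17 and 0.07 in YPS163, against 2.06, 2.26 and 2.26 in M22. It was near 0 in YPS163 on every array, with a difference of -2.21 ± 0.13 (limma adjusted p = 0.000309) and a level in ethanol that differed by -2.28 ± 0.24 (limma adjusted p = 0.00197). Among the other 17 genes of alcohol and acetate metabolism, ALD5 and ADH4 (1.38 ± 0.16, limma adjusted p = 0.0036) were higher. The ergosterol list had 1 lower call in 25, HMG1, the reductase that limits the pathway's rate (-0.78 ± 0.17, limma adjusted p = 0.0448), a share near the 3.99% of all genes called lower, and a median of -0.30. That count was 0 without the pairing, with arrays centred on their medians and with any 1 replicate left out. It was 2 with 26 arrays of the series and no pairing.

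Over all genes tested, the differences in log phase were called for 31 of 5009 genes (0.619%) and those in level in ethanol for 140 of 4898 (2.86%). With 1 replicate left out these counts were 0 to 59 and 23 to 96, and the log-phase count was 0 without replicate 2 and without replicate 3 (557 and 346 genes at an unadjusted p under 0.05). Of the 96 genes with a higher response in YPS163, 10 were lower in log phase and 0 higher. In ethanol 22 of the 96 stood at a higher level in YPS163 and 3 at a lower one. Of the 207 genes with a lower response, 3 were higher in log phase and 0 lower, and 48 stood at a lower level in ethanol and 3 at a higher one. A gap in log phase and a gap in response use the same unstressed state with opposite sign, so these counts are not independent of each other.

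The time course gave 1 array per strain at 15, 45 and 60 min and allows no test. At 30 min its array is array 1 of the comparison, which helped to choose the genes. Over the genes called higher, the median difference was 0.41 at 15 min, 1.16 at 30 min, 0.50 at 45 min and 0.24 at 60 min. Over the genes called lower it was -0.73, -1.08, -0.71 and -0.68 at the same times, against -0.05, -0.02, -0.05 and -0.10 over all genes tested. The lower genes had a median of -0.68 or lower at each time, and the higher genes had their widest gap at 30 min, the time at which they were chosen.

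MET6 had -2.16, 3.17, 2.85 and 4.21 at 15, 30, 45 and 60 min in YPS163, against -1.49, -2.12, -0.20 and 1.26 in M22. It was below 0 in both strains at 15 min, and M22 was above 0 by 60 min. LEU1 had -1.21, 2.17, 0.06 and -1.41 in YPS163, against -0.94, -1.11, -0.92 and -1.15 in M22, so that the strains were apart on the 30 min array and within 0.98 of each other on the other 3 arrays. OAC1 showed the like pulse in YPS163, with -1.46, 2.67, -0.54 and -0.93, against -2.12, -0.77, -0.08 and -0.24 in M22. The 30 min value of both genes recurred on arrays 2 and 3, and the values at other times rest on 1 array each.

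Among the lower genes, CTT1 had 3.76, 2.26, 1.72 and 2.55 in YPS163, against 6.07, 4.97, 2.31 and 2.01 in M22, with M22 no longer above YPS163 at 60 min. HSP30 was above 0 at 15 min in both strains and lower at each later time, with 3.18, -1.22, -2.86 and -3.63 in YPS163, against 4.46, 2.87, -0.44 and -1.38 in M22. AQY2 had -3.48, -4.34, -5.31 and -5.56 in YPS163, against -1.29, -1.49, -1.63 and -1.82 in M22, each lower than the time before. YDR210W-A was lower in YPS163 at each time, with 0.88, 1.72, 1.30 and 2.82 in YPS163, against 3.81, 4.64, 3.56 and 4.73 in M22.

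**Figure D5:**
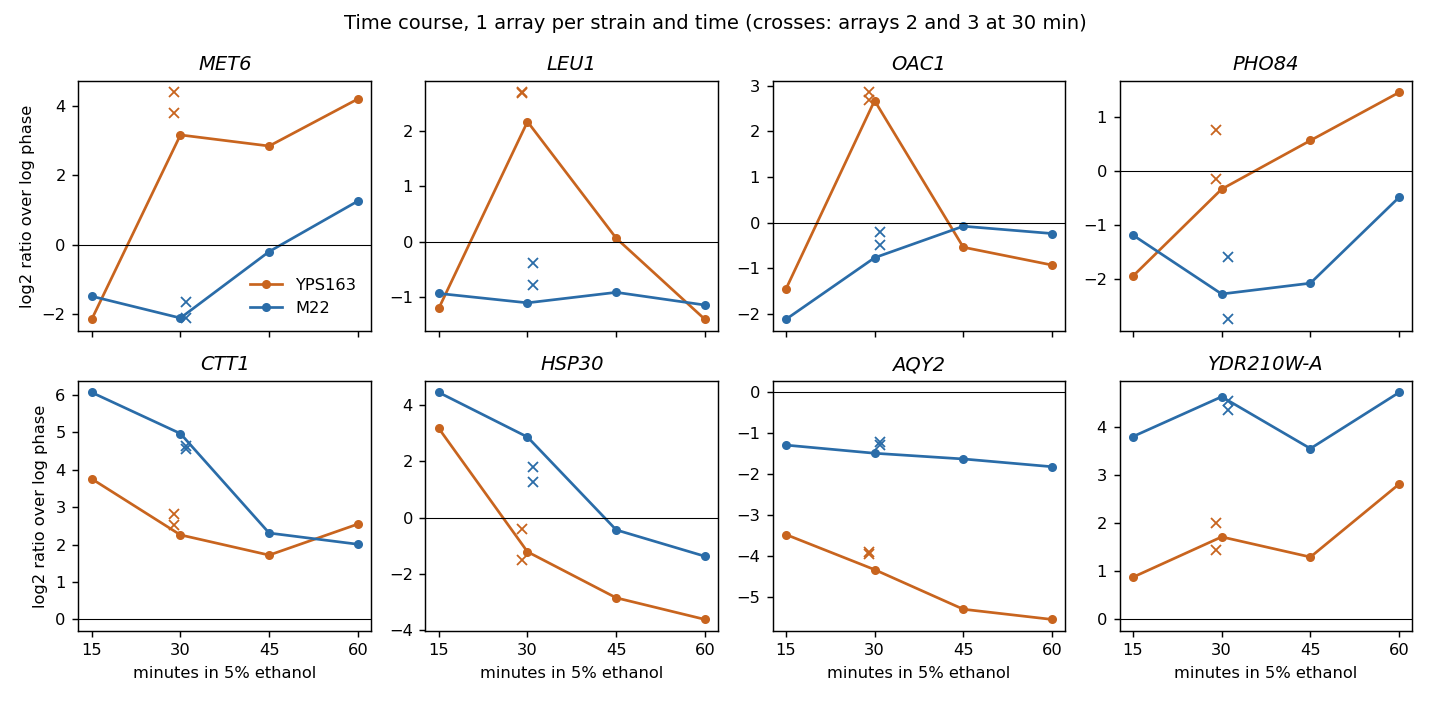
Log2 ratio over log phase (vertical axis) against minutes in 5% ethanol (horizontal axis) for 8 genes, YPS163 in orange and M22 in blue, 1 array per strain and time joined by lines, with crosses for arrays 2 and 3 at 30 min. LEU1 and OAC1 peak at 30 min in YPS163, MET6 stays high there to 60 min, and AQY2 and YDR210W-A stay apart between the strains at every time.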

How the data were processed

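RNA from log-phase and ethanol-treated cultures was extracted with hot phenol, labelled with Oyster cyanine dyes and hybridised on two-colour arrays, per the labels' protocols. The authors deposited 1 value for each of 6295 open reading frames and 36 arrays, read here from the values as log2 ratios, since the labels and the file header state no unit, log base, direction or normalisation. Of these frames 5830 matched a gene of the RefSeq table of S288C, which was used for names and for which frames neighbour each other, and 465 did not. The number of arrays limits the precision, and no intensities were used.

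In limma 3.58.1 under R 4.3.3, a mean per strain and a term for replicate number were fitted to the 9 arrays at 30 min of YPS163, M22 and DBY8268, where DBY8268 adds to the estimate of the spread. A gene was tested when at least 2 replicate pairs were complete. Benjamini-Hochberg adjustment ran over all genes tested, and genes with an adjusted p under 0.05 were called. Where an array lacked a value, the fit used the remaining arrays and imputed nothing. The numbers pair the arrays: deviations from the strain means of same-numbered YPS163 and M22 arrays correlated at 0.520, 0.246 and 0.648 across 4541 genes. The log-phase difference came from 6 arrays and the level in ethanol from 15. Errors beside a difference are standard errors of the fit. The procedure was tested on simulated data.

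The comparison, the gene lists and the tests were chosen with earlier results of these data known, and 7 of the lists were added after the values had been seen. No test was run over a list. Named genes are the 12 with the largest positive and the 12 with the largest negative difference among those called with 3 complete pairs of one sign, a fixed set of marker genes, up to 4 called genes per list (where a list had no call, the 2 with the largest difference) and the 4 opposite responders with the largest difference. One gene that the rule names is not reported here. Genes outside this rule, among them all those of the added lists, were chosen after their values were seen. A search of promoters for binding motifs was planned and not run, because no promoter sequence was used here. Ethanol array 3 of YPS163 MATa was left out because its values match the other arrays of its group best when moved by 1 row (r = 0.747, against 0.164 as deposited).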

Additional observations from a re-analysis of the deposited data

Results flagged for a closer look

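The test of the difference itself set 303 genes apart between YPS163 and M22, which is the comparison of the report. Among these, 48 genes rose in one strain and fell in the other, near-identical YRF1 copies among them. The differences that stood out most on the higher side were MET6 at 5.75, MET17 at 4.99, LEU1 at 3.28 and OAC1 at 3.22 on the log2 scale. Each was higher in YPS163 in 3 of 3 replicate pairs, which the rule that named the largest differences required.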

How the results depend on the processing

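The count of 303 genes with a different response was 150 without the replicate block on the same 9 arrays, 166 with the 6 arrays alone and the replicate block, and 101 with the 6 arrays alone and no block. It was 293 to 330 under the other settings that kept all replicates, and with 1 replicate number left out it was 64 to 133, with the fewest without replicate 2. A like count did not mean the same genes. With 26 arrays of the series and no block 327 genes were called, and 226 of them were among the 303. With arrays scaled to the same spread 314 were called, and 267 of them were among the 303. Of the 207 lower calls 174 were neither overlapping frames nor YRF1 copies, an alternative added after the data were seen. The log-phase count of 31 was 90 without the replicate block, 67 with the arrays scaled to the same spread, and 0 to 59 with 1 replicate left out. It was 0 by limma without replicate 2 and without replicate 3, where 557 and 346 genes had an unadjusted p under 0.05, while without replicate 1 it was 59. The count of 140 for the level in ethanol was 103 without the block and 23 to 96 with 1 replicate left out. Of 121 named genes that were called, 59 stayed called under every setting that left out no replicate, and 40, MET6, MET17, LEU1, OAC1, PHO84, AQY2, SFA1 and HBT1 among them, under every setting run. Leaving out replicate 2 ended the most calls: 72 of the named genes then missed the threshold. No called gene among the named ones changed direction, and 4 named genes without a call did. HSP12 was at 0.28 with scaled arrays. With 1 replicate left out, ZNF1 ran from -0.11 to 2.10, HSP104 from -0.40 to 0.46 and AQY1 from -0.01 to 0.57. The cause of these changes was not tested.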
